A study of Homo sapiens with 1 sample.

Results

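To describe the open chromatin around the receptor tyrosine kinase genes that are studied in kidney cancer, ATAC-seq peaks were collected at EGFR, ERBB2, ERBB3, MET, AXL, IGF1R, FGFR1, PDGFRA, PDGFRB and KIT. A peak was taken when its summit lay inside the GENCODE record of a gene or within 100 kb of either end. This gave 238 peaks at 10 genes, of 88676 peaks in the deposited list. The list came from 1 library of 786-O, a human cell line established from a clear cell renal carcinoma, carrying an empty vector. This group is taken from the label, whereas the names of the peaks in the file carry a wild-type tag, and which of these the cells were could not be settled from the file. ATAC-seq marks DNA that the Tn5 transposase can reach. The same study also profiled cells that overexpressed DPF3a, an isoform of a SWI/SNF subunit, and that library was not analysed here. With 1 library and no replicate, no test between groups could be made and no p-value is given. Intervals of a fold cover counting error only.

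Receptor tyrosine kinases cross the plasma membrane. A ligand on the outside brings receptors together, the kinase domains phosphorylate each other, and adaptor proteins carry the signal to the RAS-MAPK and PI3K-AKT pathways. In clear cell carcinoma, loss of VHL stabilises HIF factors, and the EGFR ligand TGFA is a known HIF target. MET and AXL are targets of kinase inhibitors used in this disease, and PDGFRA, PDGFRB and KIT are inhibited by several drugs that also block VEGF receptors. PDGFRA and PDGFRB are best known from mesenchymal cells and pericytes, and KIT from mast cells, melanocytes and germ cells.

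Fold enrichment is the pileup of reads or fragments at the summit plus 1, divided by the genome-wide background pileup of 0.941 plus 1. The median fold of the 238 peaks was 11.9, at a pileup of 22, compared with 10.8 and 20 over the 88615 peaks on the 24 primary chromosomes. Of the 238 peaks, 82 (34.5%) had a pileup under 15, and this share was 35.7% over all peaks. Among marker genes, PAX8 (promoter fold 31.9) and PAX2 (22.7) had a promoter peak at the canonical start. VIM had a peak (47.9) at the start of another transcript. Its summit lay 375 bp downstream of the canonical start, and the peak interval covered that start. NDUFA4L2 had a weak peak (8.24) at the start of another transcript and none at the canonical promoter. CA9 had no promoter peak. PTPRC, CD3E, PECAM1 and ALB, which mark other cell types, had no promoter peak either, while GFAP had a peak (36.1) at the start of another transcript.

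The sequences below are shown because they lie under the highest peak outside promoters inside 6 of the genes. Each runs 50 bp to both sides of a summit on the plus strand of hg38, and capitals mark a match to a searched motif on either strand. EGFR and MET are the loci with the highest folds, AXL holds a pair of AP-1 sites, IGF1R a TEAD site (GGAATG) and PDGFRA a CTCF site. The sites of EGFR, MET and PDGFRB hold none of the searched motifs.
EGFR intron 1 (fold 88.6), chr7:55132859-55132959: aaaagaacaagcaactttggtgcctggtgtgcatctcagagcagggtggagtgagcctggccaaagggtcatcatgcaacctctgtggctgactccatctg
MET intron 2 (fold 83.0), chr7:116716785-116716885: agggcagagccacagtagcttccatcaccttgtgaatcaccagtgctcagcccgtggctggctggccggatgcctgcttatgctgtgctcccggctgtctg
IGF1R intron 2 (fold 36.6), chr15:98727783-98727883: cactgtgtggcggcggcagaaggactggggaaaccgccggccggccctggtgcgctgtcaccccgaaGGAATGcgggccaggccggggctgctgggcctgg
PDGFRB intron 1 (fold 26.8), chr5:150143089-150143189: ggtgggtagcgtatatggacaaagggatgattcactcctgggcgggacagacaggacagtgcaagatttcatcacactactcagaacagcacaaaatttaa
AXL intron 4 (fold 23.2), chr19:41223681-41223781: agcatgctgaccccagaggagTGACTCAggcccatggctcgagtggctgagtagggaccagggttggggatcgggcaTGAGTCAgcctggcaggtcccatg
PDGFRA intron 1 (fold 13.4), chr4:54233385-54233485: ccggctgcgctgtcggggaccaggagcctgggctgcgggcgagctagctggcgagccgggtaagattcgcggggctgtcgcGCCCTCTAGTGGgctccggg

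The receptor genes differed widely in the number of peaks around them. EGFR had 43 peaks, MET 40 and IGF1R 39, so that these 3 genes held 122 of the 238 peaks (51.3%). AXL had 26, PDGFRB 22, ERBB3 and FGFR1 19 each, ERBB2 16, PDGFRA 9 and KIT 5. Longer genes have longer windows, and the number was therefore also expressed per 100 kb. It was 12.3 at MET, 10.95 at EGFR, 10.7 at AXL, 9.09 at PDGFRB, 8.38 at ERBB3, 7.56 at IGF1R, 7.07 at FGFR1, 6.60 at ERBB2, 3.35 at PDGFRA and 1.76 at KIT. The median window of a protein-coding gene held 4.44 per 100 kb, a value that 8 of the 10 receptor windows exceeded. MET stood above 97.4% of protein-coding genes, EGFR above 95.1% and AXL above 94.5%, whereas PDGFRA stood above 35.7% and KIT above 16.8%.

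**Figure D1:**
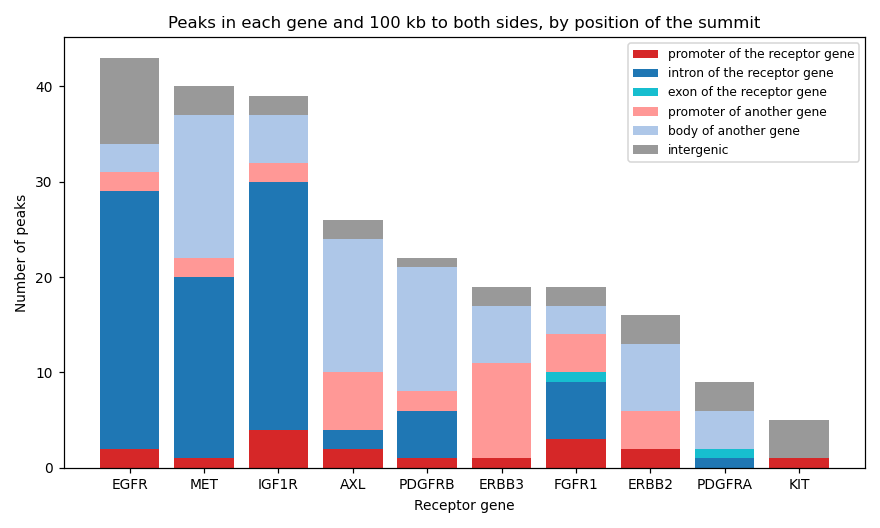
Number of ATAC-seq peaks (y axis) in each receptor gene and 100 kb to both sides, in 1 library, with colours for the position of the summit. Introns of the receptor gene hold most peaks at EGFR (27 of 43) and IGF1R (26 of 39), while KIT has 5 peaks in all.

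Where the peaks lay also differed. Of the 238 summits, 17 were at a promoter of a receptor gene, 86 in its introns, 2 in its exons, 32 at promoters of other genes, 70 in bodies of other genes and 31 between genes. A summit counted as a promoter when it fell between 1 kb before and 100 bp after the start site of any transcript. Inside the gene record, EGFR had 28 summits, more than 98.8% of protein-coding genes of like length (between 2 times shorter and 2 times longer, median 5). MET had 19 (above 98.1%, median 4), IGF1R 30 (above 97.4%, median 7) and FGFR1 12 (above 97.6%, median 2). PDGFRB had 5 (above 87.6%, median 1) and AXL 3 (above 68.6%, median 2). ERBB2 had 2 summits inside the gene, ERBB3 1, PDGFRA 2 and KIT 1, all near or below the middle of their length class. Some of the FGFR1 summits lay outside the canonical transcript. Among them were a peak at a promoter of the neighbouring gene LETM2 (fold 12.9) and a peak in the body of LETM2 (18.6). At ERBB3 and ERBB2 the peaks of the window lay mainly outside the receptor gene. At the edges of the windows, the nearest summit left out was 100.02 kb from MET (fold 20.1), and the farthest one kept was 98.0 kb away (7.21). At ERBB3, a peak with a fold of 79.4 at 102.9 kb was left out.

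**Figure D2:**
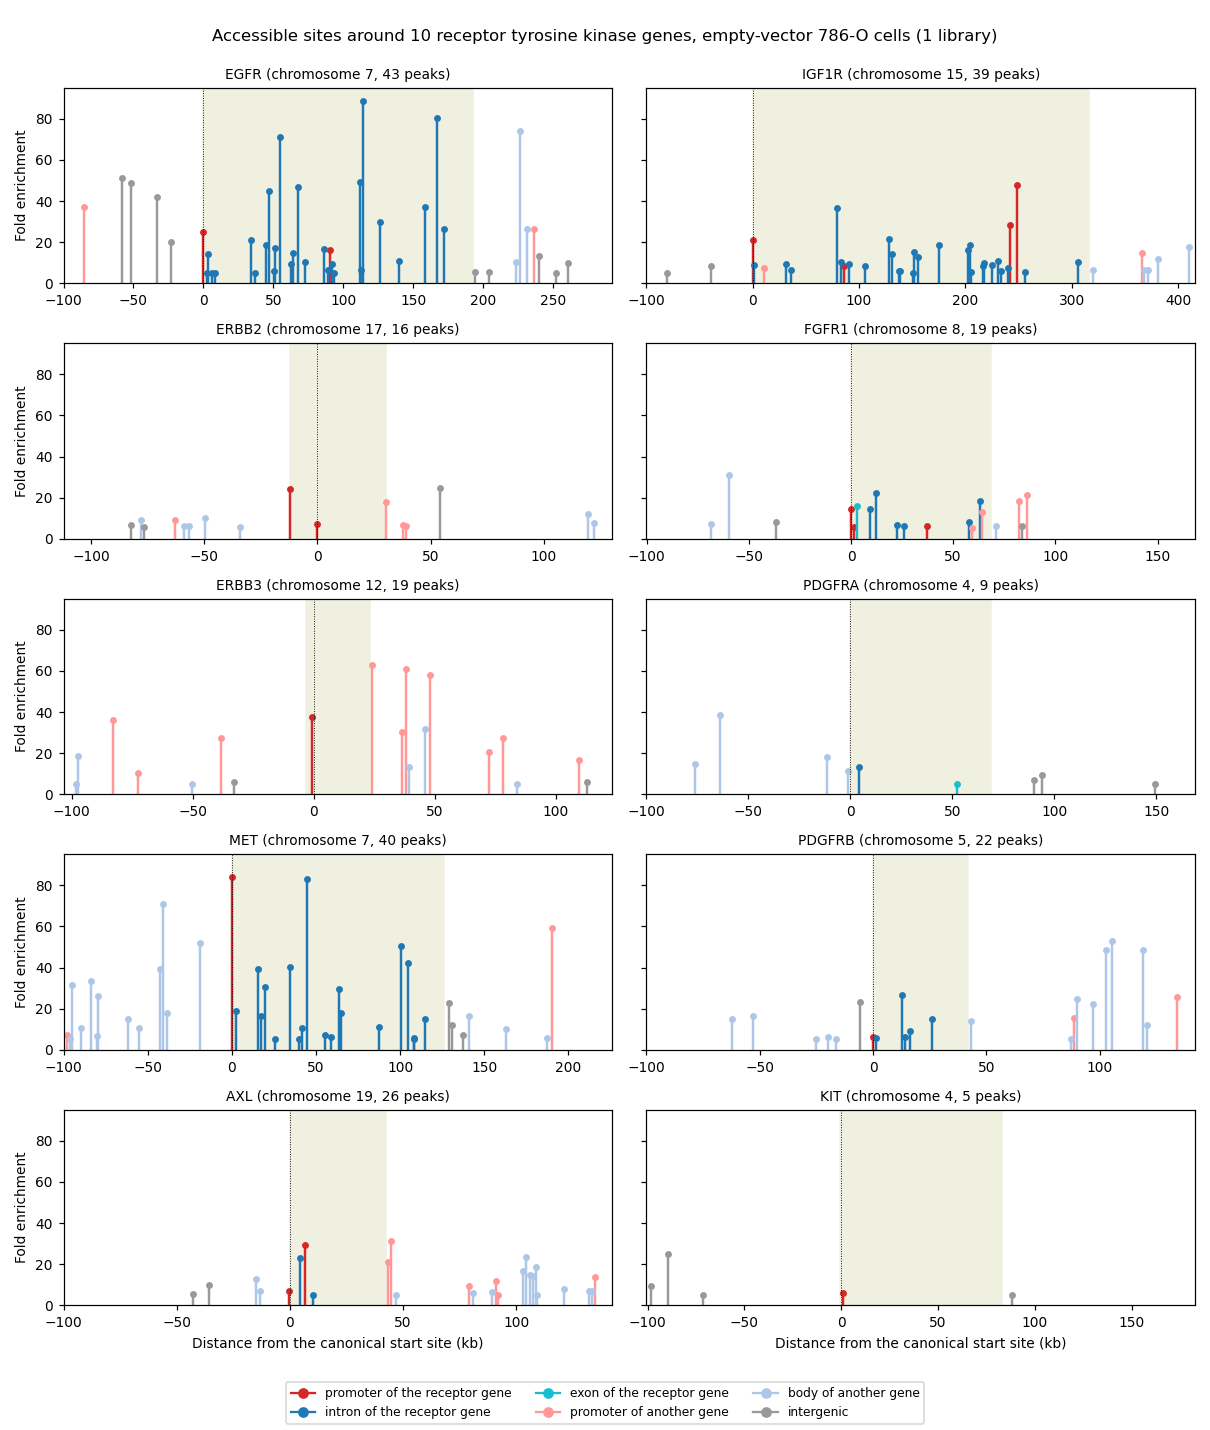
Fold enrichment (y axis) of each peak against its distance from the start site of the canonical transcript (x axis, kb, in the direction of transcription), for the 10 receptor genes in 1 library. The shaded span is the gene record, and colours give the position of the summit. Tall intronic peaks stand at EGFR (up to 88.6) and MET (up to 83.0), and the KIT record holds 1 peak with a fold of 6.18.

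Promoter peaks were examined next. At least 1 start of the gene had a promoter peak in 9 of the 10 receptor genes (90.0%, exact 95% interval 55.5 to 99.7), compared with 61.4% of 20033 protein-coding genes. The exception was PDGFRA. Using the canonical transcript alone, 8 of the 10 had a peak, compared with 52.2% of protein-coding genes, because KIT dropped out as well. With a score above 100 or above 200, PDGFRB and KIT lost their peak and 7 genes remained. Given 10 genes, these counts describe the set and do not set it apart.

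MET, the receptor of hepatocyte growth factor, had the highest promoter peak of the 10 genes. It spanned 116671597 to 116673582 on chromosome 7 (1986 bp), with the summit 110 bp upstream of the start, a pileup of 162 and a fold of 84.0 (95% counting interval, 71.6 to 97.9). IGF1R, the receptor of the insulin-like growth factors, came next with 47.9 (38.7 to 58.7), an interval that did not reach that of MET. ERBB3, which pairs with ERBB2 and has little kinase activity of its own, had a fold of 37.6 (29.5 to 47.2). AXL, the receptor of GAS6, had 29.4 (22.3 to 38.0). EGFR had 24.7 (18.3 to 32.7) and ERBB2, which has no known ligand, 24.2 (17.9 to 32.1). FGFR1, a receptor of fibroblast growth factors, had 14.4 (9.68 to 20.8). PDGFRB, a receptor of platelet-derived growth factors, and KIT, the receptor of stem cell factor, both had 6.18 (3.34 to 10.7) at a pileup of 11. From IGF1R downwards, the interval of each gene overlapped that of the next.

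**Figure D3:**
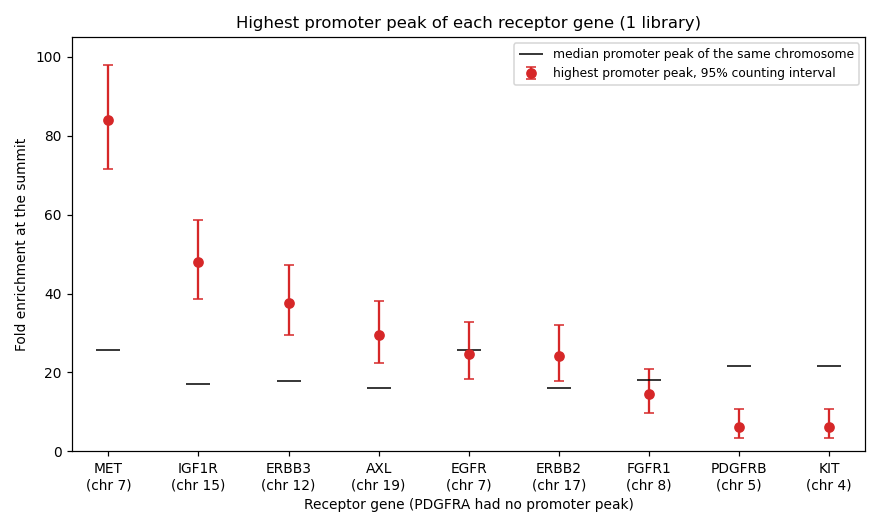
Fold enrichment (y axis) at the summit of the highest promoter peak of 9 receptor genes in 1 library, with exact Poisson 95% counting intervals. The black dash is the median over all promoter peaks of the same chromosome. MET lies at 84.0 against a chromosome median of 25.8, whereas PDGFRB and KIT lie at 6.18 against 21.6.

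All folds share 1 background value, and chromosome 7, where EGFR and MET lie, had high promoter folds. Its median promoter fold was 25.8, compared with 19.6 over all promoter peaks, and 8.03% of its peaks had a fold over 50, compared with 3.94% of all peaks. This share was also high on chromosomes 8 (7.36%) and 5 (6.06%), where FGFR1 and PDGFRB lie. The median fold over all peaks of chromosome 7 was 10.8, the same as in the library. The highest promoter peak of each gene was therefore placed among all promoter peaks of its own chromosome. MET was higher than 95.1% of them and EGFR than 48.7%, so the EGFR promoter was close to the middle of its chromosome. The value was 95.2% for IGF1R, 82.7% for ERBB3, 80.8% for AXL, 71.9% for ERBB2, 43.5% for FGFR1, 9.32% for KIT and 7.15% for PDGFRB, with a median of 71.9% over the 9 genes. These values set the highest peak of a gene against single promoter peaks, which favours genes with several starts. Over all protein-coding genes with a promoter peak, the median of the highest was 25.8, compared with 19.6 over all promoter peaks. Within 10 Mb of the summit, MET stood above 86.3% and EGFR above 51.8% of promoter peaks. What raises the promoter folds of chromosome 7 was not tested.

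In 4 genes the highest promoter peak was not at the canonical start. The IGF1R peak with a fold of 47.9 lay 155 bp upstream of the start of transcript IGF1R-206, in intron 4 and 248592 bp downstream of the canonical start. The canonical promoter had a broad peak (2371 bp) with a fold of 21.1 (15.2 to 28.6), and further peaks of 28.3 and 8.24 lay at starts of other transcripts. At AXL, the peak of 29.4 was 961 bp upstream of the start of AXL-203, in intron 4 of the canonical transcript, and the canonical promoter had a fold of 7.21 (4.08 to 12.0). At ERBB2, the peak of 24.2 lay 12074 bp upstream of the canonical start and was shared with the promoter of PGAP3, and the canonical promoter again had 7.21 (4.08 to 12.0). The KIT peak lay 801 bp downstream of the canonical start, 10 bp inside transcript KIT-210. With the canonical transcript alone, the median percentile on the own chromosome was 36.5% over 8 genes, compared with 71.9% over 9 genes with any transcript. The 36.5% was taken among peaks at canonical starts alone, so the reference sets differ. Among promoter peaks of any transcript, the canonical peak stood above 59.7% at IGF1R, 13.9% at AXL and 16.3% at ERBB2. The placing of these genes thus depended on the starts that were counted.

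PDGFRA, a receptor of platelet-derived growth factors, had no promoter peak by GENCODE transcripts. The nearest summit was 1167 bp upstream of the canonical start, with a fold of 11.3. Its highest peak inside the gene, 54233059 to 54234685 in intron 1, had a fold of 13.4 (8.85 to 19.5) and lay 525 bp upstream of a further start in RefSeq. By RefSeq starts PDGFRA would count as having a promoter peak. This comparison was added after the values had been seen, and by it 7 of the 8 receptor genes with a RefSeq entry had a peak, with KIT as the exception.

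The promoters of MET, EGFR, PDGFRA and KIT are shown to set open next to weak or absent sites. They are RefSeq sequences (GRCh38.p14) upstream of the start on the plus strand, without bases annotated as UTR in GENCODE, and CpG dinucleotides are in capitals.
MET, chr7:116671946-116672195: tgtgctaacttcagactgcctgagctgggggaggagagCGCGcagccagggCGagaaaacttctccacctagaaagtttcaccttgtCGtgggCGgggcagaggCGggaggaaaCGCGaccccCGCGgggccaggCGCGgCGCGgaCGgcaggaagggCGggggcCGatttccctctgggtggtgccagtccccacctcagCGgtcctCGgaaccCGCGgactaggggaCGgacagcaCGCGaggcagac
EGFR, chr7:55018767-55019016: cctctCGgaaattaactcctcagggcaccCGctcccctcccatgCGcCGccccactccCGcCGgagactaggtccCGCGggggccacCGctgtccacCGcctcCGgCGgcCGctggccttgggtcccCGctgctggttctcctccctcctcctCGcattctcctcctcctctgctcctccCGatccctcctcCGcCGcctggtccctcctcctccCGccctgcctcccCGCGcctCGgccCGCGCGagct
PDGFRA, chr4:54229043-54229279: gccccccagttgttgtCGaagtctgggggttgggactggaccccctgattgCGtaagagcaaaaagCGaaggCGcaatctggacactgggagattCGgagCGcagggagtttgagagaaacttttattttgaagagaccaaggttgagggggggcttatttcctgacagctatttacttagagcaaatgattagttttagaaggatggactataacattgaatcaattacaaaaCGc
KIT, chr4:54657707-54657888: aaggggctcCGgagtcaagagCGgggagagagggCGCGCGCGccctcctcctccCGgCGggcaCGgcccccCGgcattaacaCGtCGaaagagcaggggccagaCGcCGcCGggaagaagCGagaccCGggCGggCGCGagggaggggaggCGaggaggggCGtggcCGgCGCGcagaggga

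Genes with a promoter rich in CpG were found among those with strong and with weak peaks. Over the 250 bases upstream of the start, the KIT promoter had 76.4% G or C and 34 CpG dinucleotides, more CpG than 93.2% of 35116 RefSeq promoters, and yet no peak within its canonical promoter. MET had 68.4% G or C and 24 CpG, EGFR 73.6% and 25, and IGF1R 81.2% and 48. PDGFRA had 46.8% and 8 CpG at its canonical start and 64.0% and 25 CpG at the further RefSeq start. AXL had 64.4% G or C but 4 CpG at the canonical start, and 54.4% with 13 CpG at the internal start where its stronger peak lay. PDGFRB had 58.4% and 9 CpG. The median over all RefSeq promoters was 58% and 11 CpG. The table held 8 of the 10 genes, without ERBB3 and FGFR1.

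EGFR is the gene with the most peaks, and most of them lay in its long intron 1. This intron spans 123 kb of the canonical transcript and held 22 of the 27 intronic peaks outside promoters. The strongest, 55132489 to 55134493 near the end of intron 1, had a fold of 88.6 (75.9 to 102.9) and was higher than 99.2% of the non-promoter peaks of chromosome 7. The interval lay above that of the EGFR promoter (18.3 to 32.7). A further intron 1 peak 55142 bp from the start had a fold of 71.1 (59.8 to 84.0). In intron 20, where the antisense transcript EGFR-AS1 overlaps, a peak at 55185173 to 55187148 reached 80.4 (68.3 to 93.99). Upstream, 4 intergenic peaks between 22943 and 58270 bp from the start had folds from 20.1 to 51.01. Downstream, in the long noncoding RNA gene ELDR, a peak at 55244933 to 55246446 had a fold of 74.2 (62.6 to 87.3). Of the 43 peaks at EGFR, 5 had a fold over 50 and 11 a pileup under 15, so strong and weak sites lay side by side.

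At MET, strong sites lay on both sides of the start. The strongest intronic peak, 116715900 to 116717359 in intron 2, had a fold of 83.0 (70.7 to 96.8), about that of the promoter (84.0), and was higher than 98.9% of the non-promoter peaks of the chromosome. Upstream, 12 peaks lay in the body of COMETT, a long noncoding RNA gene next to MET, with folds from 5.15 to 71.1. The highest of them, 116630467 to 116631807, was 41159 bp upstream of the MET start (71.1; 59.8 to 84.0). Another, 18810 bp upstream, had a fold of 52.0 (42.4 to 63.2). Towards the end of the gene, peaks in intron 14 and intron 15 had folds of 50.5 (41.0 to 61.5) and 42.3 (33.7 to 52.4). These last 3 sites each held an AP-1 match, TGACTCA or its reverse complement TGAGTCA, within 50 bp of the summit, and are shown with the match in capitals.
MET, 18810 bp upstream, chr7:116653336-116653436: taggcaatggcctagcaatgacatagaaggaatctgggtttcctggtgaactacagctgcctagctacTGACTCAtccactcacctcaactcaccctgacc
MET intron 14, chr7:116772679-116772779: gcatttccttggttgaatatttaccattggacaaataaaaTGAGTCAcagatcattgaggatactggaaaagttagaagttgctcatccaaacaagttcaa
MET intron 15, chr7:116776782-116776882: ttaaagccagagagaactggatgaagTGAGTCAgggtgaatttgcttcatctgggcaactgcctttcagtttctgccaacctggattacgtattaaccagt

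IGF1R had many sites of modest strength. Its 26 intronic peaks outside promoters had folds from 5.15 to 36.6 with a median of 9.28, compared with 14.9 at EGFR and 16.5 at MET. The highest, 98727337 to 98728096 in intron 2, had a fold of 36.6 (28.6 to 46.1). No peak at IGF1R exceeded a fold of 50. A fold over 50 was found at 15 of the 238 peaks (6.30%), compared with 3.94% of all peaks in the library. Of these 15, 11 were at EGFR and MET on chromosome 7, 3 at ERBB3 and 1 at PDGFRB. The 3 at ERBB3 were promoters of neighbouring genes, PA2G4 (62.9), ESYT1 with ZC3H10 (60.8) and ESYT1 (58.2).

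Among the other receptors, FGFR1 on chromosome 8 had 12 summits inside the gene. Its highest intronic peak was in intron 2 with a fold of 22.2 (16.1 to 29.8) and held an AP-1 match, and a peak 59566 bp upstream in LINC03042 reached 30.9 (23.7 to 39.7). At AXL, a peak in intron 4 had a fold of 23.2 (16.99 to 31.0). The highest peak of the AXL window was at the promoter of the neighbouring gene HNRNPUL1, with a fold of 31.4 (24.1 to 40.3), and 12 of the 26 peaks lay within TGFB1, the neighbouring gene of transforming growth factor beta 1. At ERBB2, the highest peak of the window was intergenic, 54383 bp downstream of the start, with a fold of 24.7 (18.3 to 32.7), and GRB7, the neighbour that encodes an adaptor of receptor tyrosine kinases, had promoter folds of 6.70 and 6.18.

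PDGFRB showed a different layout. Its promoter was weak, while 4 of its 5 intronic peaks lay in intron 1, and the highest of these had a fold of 26.8 (20.1 to 35.1). The stronger sites were 3' of the gene. Of the peaks downstream of PDGFRB, 6 had their summit in CSF1R and 4 in HMGXB3, and the highest, 150049916 to 150050739 in HMGXB3, had a fold of 53.1 (43.4 to 64.3). The median fold was 23.4 downstream of PDGFRB, compared with 9.28 inside it and 6.18 upstream. A peak cannot be assigned to a gene from its position.

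PDGFRA and KIT lie next to each other on chromosome 4 and had 14 peaks in all. Outside the gene, the highest PDGFRA peak was 63671 bp upstream (38.6; 30.5 to 48.4), in a readthrough gene that spans this region, and it held a CTCF match and 2 TEAD matches.
PDGFRA, 63671 bp upstream, chr4:54165572-54165672: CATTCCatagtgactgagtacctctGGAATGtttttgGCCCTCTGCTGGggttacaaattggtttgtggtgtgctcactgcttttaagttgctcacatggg

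At KIT, the highest peak was 89519 bp upstream with a fold of 24.7 (18.3 to 32.7). The other 4 had folds from 5.15 to 9.28. The longest stretch without a summit in the KIT window was 94.4 kb, compared with 31.6 kb at EGFR and 35.7 kb at MET. Each of these stretches ended at the downstream edge of the window and not at a summit, so its length depends on the window. Peaks covered 0.700% of the KIT window, 2.34% of that of PDGFRA, 10.8% of that of MET and 11.3% of that of EGFR.

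To see which sequences the receptor sites shared, motifs were counted within 50 bp of the 189 summits that lay at no promoter. An AP-1 match was present at 23 of them (12.2%; exact 95% interval, 7.87 to 17.7), compared with 18.0% (17.7 to 18.3) of 71445 such summits in the library. With 100 bp on each side, the shares were 23.8% (17.9 to 30.5) and 29.3%. Anywhere in the peak they were 37.0% (30.1 to 44.3) and 40.4%. Both receptor intervals include the share of the library. Within 50 bp, the receptor share was 9.09% (4.01 to 17.1) inside the gene records and 8.70% (4.57 to 14.7) with 50 kb. With 200 kb it was 14.2% (10.3 to 18.9), an interval that includes 18.0%. By gene, within 50 bp and in the 100 kb windows, 7 of 37 distal summits had a match at MET and 5 of 33 at IGF1R. There were 4 of 19 at PDGFRB, 2 of 18 at AXL and 2 of 39 at EGFR. The many sites of EGFR thus carried few AP-1 matches near the summit. A single match was found at ERBB3, FGFR1 and PDGFRA each, and none at ERBB2 or KIT. The median fold of distal receptor peaks was 14.9 with an AP-1 match and 10.3 without, compared with 11.3 and 9.28 over the library. TEAD matches (GGAATG) were at 10.6% of distal receptor summits and 10.3% of all, RUNX matches (TGTGGTT) at 5.29% and 5.97%, and CTCF matches at 4.23% and 3.93%. The short HIF core (ACGTG or GCGTG) was at 18.0% (12.8 to 24.2) and 13.4% (13.2 to 13.7). Matches to ETS (CCGGAAGT) and SP/KLF (GGGGCGGGG) were absent at these 189 summits and rare at all distal summits (0.155% and 0.349%). Each is a match of letters and not a measured binding site, and the receptor peaks are part of the library they are set beside.

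The median fold of the 189 distal receptor peaks was 10.8, compared with 9.28 over all distal peaks. This difference lay on chromosome 7. There, the 76 distal peaks of EGFR and MET had a median of 15.7, compared with 9.79 for all distal peaks of the chromosome. At the other 8 genes the median of 113 distal peaks was 9.28, the same as for all distal peaks outside chromosome 7 (9.28).

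The 10 genes were then set beside the 48 other human receptor tyrosine kinases. Of these, 25 (52.1%; 37.2 to 66.7) had a promoter peak, near the 61.4% of all protein-coding genes. The median fold was 15.5 among those 25, compared with 24.7 among the 9 here. By peaks per 100 kb, MET was at rank 2 of 58, EGFR at 5, AXL at 6, PDGFRB at 12, ERBB3 at 14, IGF1R at 15, FGFR1 at 19, ERBB2 at 22, PDGFRA at 35 and KIT at 46. The highest density was at EPHA2 (18.1 per 100 kb), and ROR1 had the most peaks (69). The highest promoter folds of the other receptors were at FGFR2 (58.7), EPHA5 (44.3), LMTK2 (42.3), FGFR4 (39.7) and ROR1 (36.6), and the lowest at ALK and AATK (5.67 each) and FGFR3 and NTRK2 (6.18 each). Among these, the peaks of FGFR2, FGFR4, ALK, AATK and NTRK2 lay at starts of other transcripts. The FGFR2 peak was 87970 bp downstream of the canonical start. Other receptors without a promoter peak included the VEGF receptors FLT1, KDR and FLT4, the angiopoietin receptors TIE1 and TEK, ERBB4, INSR and RET. DDR1 and EPHB6 had no peak in their windows at all, with the nearest summit 923265 and 345382 bp from a start. Both are counted here as receptors without a promoter peak. The authors removed reads of low mapping quality, and whether reads could be placed in these windows was not tested. The lack of peaks at these genes therefore cannot be read as closed chromatin.

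**Figure D4:**
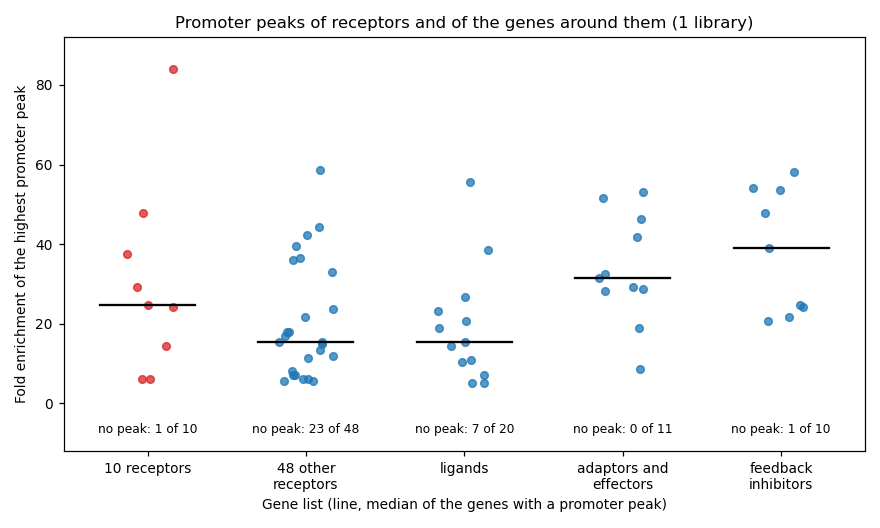
Fold enrichment (y axis) of the highest promoter peak of each gene in 5 gene lists (x axis), in 1 library, with the median as a line, the number of genes without a promoter peak below, and a random sideways shift of the points. All 11 adaptors and effectors have a promoter peak, whereas 23 of the 48 other receptors do not, and 61.4% of all protein-coding genes have one.

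The ligand genes were mixed. Of 20 ligand genes, 13 (65.0%; 40.8 to 84.6) had a promoter peak, near the 61.4% of all protein-coding genes. For EGFR, the peaks were at TGFA (38.6), HBEGF (23.2), EREG (20.6) and EGF (10.8), while AREG, BTC and EPGN had none. The nearest summit of AREG lay 110 bp from a start, just outside the limit of a promoter, and that of BTC 468 bp away. For ERBB3, NRG2 had 19.1 and NRG1 had 10.3. HGF, the ligand of MET, had no promoter peak, and its nearest summit was 5947 bp from a start. GAS6, the ligand of AXL, and IGF1 had the lowest fold of the list (5.15 each), and IGF2 had none. FGF1 had 55.7 at the start of another transcript, and FGF2 had none. For the PDGF receptors, PDGFC had 15.5, PDGFA 14.4 and PDGFB 7.21, and PDGFD had none. KITLG, the ligand of KIT, had 26.8, compared with 6.18 at KIT itself. The peaks of EGF, NRG1, IGF1, PDGFA and KITLG also lay at starts of other transcripts. At PDGFA and KITLG the summit was 748 and 120 bp downstream of the canonical start, and the peak interval covered that start.

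The genes that act below the receptors had promoter peaks with 1 exception. All 11 adaptors and effectors had a promoter peak, with a median fold of 31.4. The folds were 53.1 at PIK3CA, a catalytic subunit of PI3 kinase, 51.5 at SHC1, 46.4 at SOS1, 41.7 at GRB2, 32.5 at IRS2, 31.4 at PLCG1, 29.4 at GAB1, 28.9 at PIK3R1, 28.3 at FRS2, 19.1 at PTPN11 and 8.76 at IRS1. The SHC1 peak was shared with CKS1B and the PTPN11 peak with RPL6. The peaks of GRB2, SHC1, SOS1 and IRS1 lay at starts of other transcripts, that of GRB2 11646 bp downstream of the canonical start. Of 10 feedback inhibitors, 9 had a promoter peak (90.0%; 55.5 to 99.7), an interval that includes the 61.4% of all protein-coding genes. Their median fold was 39.2. The folds were 58.2 at SPRY2, 54.1 at CBLB, 53.6 at LRIG1, 47.9 at DUSP6, 39.2 at SPRED2, 24.7 at SPRY4, 24.2 at ERRFI1, 21.6 at SPRY1 and 20.6 at CBL. SPRED1 had none, with its nearest summit 398 bp from a start and outside the promoter. The median of the highest promoter peak over all protein-coding genes with such a peak was 25.8, so both groups lay above it, and the 9 receptor genes here (24.7), the ligands (15.5) and the other receptors (15.5) below.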

How the data were processed

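ATAC-seq data of 1 empty-vector 786-O library were used. Per the study's methods and the labels, the authors used fastp for trimming and Bowtie2 2.3.4.3 for alignment to hg38, kept mapping qualities of at least 30, removed duplicates and called peaks with MACS2 2.2.6 (q 0.05) against a genome-wide background. Because the background was not local, the folds of regions with more signal are not scaled down. A shift to the Tn5 cutting site is not given in the sources used here. The deposited ratio is a fold enrichment, and a −log10 p-value and a −log10 q-value were also deposited. The score column deposited by the authors equals the −log10 q-value multiplied by 10 and cut to a whole number in 100% of peaks. The lowest deposited score was 52 and the lowest fold 5.15. A q-value of 0.05 corresponds to a much lower score, so the deposited list is stricter than q 0.05. Sites that pass q 0.05 alone could be missing, also at genes described as without a promoter peak. The paper gives a score filter for its ChIP-seq peaks and none for ATAC-seq. The total number of reads is unknown.

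All peak intervals lay within the reference chromosomes. GENCODE release 44 gave genes and transcripts. Pileups were recovered from the folds as whole numbers to within 1.69e-05, and exact Poisson intervals at 95% were converted to folds. Shares carry exact binomial intervals. A percentile is the percent of values that are lower. Every receptor was named, with its highest promoter peak, its highest peak inside the gene and the highest in its window, and so was each ligand, adaptor and inhibitor. The other receptors were given by count and by the highest and lowest folds. Some genes and a motif of the lists are not reported here. Members and lists were chosen with earlier results of these data known. Score minimums, promoter widths, window sizes, motif windows and chromosome pools were varied. Functions were tested on simulated data. Python 3.11.15, numpy 2.4.6, pandas 2.3.3, scipy 1.17.1, pysam 0.24.0 and matplotlib 3.10.9 were used.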

Additional observations from a re-analysis of the deposited data

How the results depend on the processing

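No paired analysis was possible because a single library was used. The number of peaks was 158 with a score above 100, 121 with a score above 200 and 103 inside the gene records alone, and the median fold was 18.0 and 22.7 at these score minimums. Fewer and stronger peaks remain by construction. With 200 kb to both sides, MET had 57 peaks, EGFR 54, IGF1R 47, PDGFRB 44 and ERBB3 36. AXL then had 34, FGFR1 26, PDGFRA 22, ERBB2 19 and KIT 12. The order of the genes by number of peaks thus depended on the window, while KIT kept the fewest. The median fold was 9.79 for members outside chromosome 7. Divided by the median of its chromosome, it was 1.12, on another scale. The AP-1 share was 23.8% with 100 bp on each side and 37.0% anywhere in the peak, since a wider window finds more matches. Genes with a promoter peak numbered 7 to 10 under all alternatives. Of the 58 promoter peaks counted over the other receptors, ligands, adaptors and inhibitors, 44 were kept with a score above 200 and 67 were found with 2.5 kb to both sides. Sites with a pileup under 15, 34.5% of those described, are the least certain.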
